A study of Homo sapiens with 12 samples.

Results

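Ribosome biogenesis factors are the proteins that make ribosomal RNA and fold, cut, modify and assemble it with ribosomal proteins. The 42 genes described here were chosen by symbol for that role, with earlier results of these data known. They are 42 of the 19647 genes in the table. Each gene's value is the sum over its rows with an Ensembl transcript identifier. The 42 genes fall into 7 roles: 5 genes of RNA polymerase I transcription, 3 of the box C/D and 4 of the box H/ACA small nucleolar ribonucleoproteins (snoRNPs), 4 nucleolar scaffolds and chaperones, 11 of the small subunit processome, 5 of late small subunit maturation and 10 of large subunit assembly. All 42 had an FPKM (fragments normalised to transcript length and library size) of 1 or more in at least 3 libraries and entered the test.

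The data come from A549 cells, an established line of human non-small cell lung cancer, in 4 groups of 3 libraries. The groups are NR0B1 overexpression (NR0B1 OE), its wild-type control (OEC), NR0B1 knockdown (shNR0B1) and its wild-type control (shNC), all labelled as untreated. NR0B1 encodes DAX1, a nuclear receptor without a known ligand that mostly represses transcription. The prefix sh in shNR0B1 and shNC commonly stands for short hairpin RNA, which the labels do not spell out. The labels do not give how NR0B1 was overexpressed, what the control cells received, or whether a group is 1 clone or several cultures. The p-values therefore measure only the spread between these libraries, which may be technical.

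Ribosome synthesis starts in the nucleolus, where RNA polymerase I transcribes a long precursor from the ribosomal DNA repeats. Box C/D and box H/ACA snoRNPs methylate it and convert uridines to pseudouridine, the small subunit processome folds and cleaves its upstream part, and other factors build the large subunit from the remainder. The genes for these factors are typically highly expressed in growing cancer cells, and MYC is known to activate many of them.

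Promoter sequences of the 42 genes were read first for what they share. The RefSeq promoter table (GRCh38.p14; each window runs from 250 bases before to 50 bases after a start site) held 42 windows of 35 of these genes. The letters CACGTG, the canonical E-box that MYC and other basic helix-loop-helix leucine zipper proteins recognise, stood in 17 of the 42 windows, 40.5% (exact 95% interval 25.6% to 56.7%, counting error only). Among windows of genes tested it stood in 9.46%, among the further ribosome biogenesis genes described below in 22.9% and among all 35116 windows of the table in 7.26%. CACGTG reads the same on both strands. Counted by gene, 17 of 35 members (48.6%) held it, against 13% of 9421 tested genes with a window. Of the 18 sites in member windows, 17 (94.4%) began within 50 bases of the start site, against 38.8% of 1496 sites in windows of genes tested. With CATGTG and CACATG, each the reverse complement of the other, also allowed, the share was 45.2% of member windows and 17.6% of all windows. A match is a description of the letters only.

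Windows are printed for 4 members with CACGTG that recur in the results below, 5′ to 3′ on the gene's strand, with CACGTG in capitals, and for NOP16, which moved in both comparisons and has no CACGTG in its window.
WDR43, chr2:28894417-28894716, plus strand: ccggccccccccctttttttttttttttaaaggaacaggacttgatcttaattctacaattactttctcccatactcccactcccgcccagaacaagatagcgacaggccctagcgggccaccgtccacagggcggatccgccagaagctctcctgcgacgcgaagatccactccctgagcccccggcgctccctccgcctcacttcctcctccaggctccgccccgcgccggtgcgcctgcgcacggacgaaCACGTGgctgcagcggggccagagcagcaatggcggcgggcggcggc
NOP2, chr12:6568242-6568541, minus strand: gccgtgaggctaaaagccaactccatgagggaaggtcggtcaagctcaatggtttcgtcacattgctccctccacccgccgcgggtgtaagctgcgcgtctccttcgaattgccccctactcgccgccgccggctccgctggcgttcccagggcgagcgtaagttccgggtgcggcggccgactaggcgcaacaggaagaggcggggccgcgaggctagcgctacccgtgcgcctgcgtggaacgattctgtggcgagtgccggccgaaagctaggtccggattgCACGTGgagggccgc
LTV1, chr6:143843088-143843387, plus strand: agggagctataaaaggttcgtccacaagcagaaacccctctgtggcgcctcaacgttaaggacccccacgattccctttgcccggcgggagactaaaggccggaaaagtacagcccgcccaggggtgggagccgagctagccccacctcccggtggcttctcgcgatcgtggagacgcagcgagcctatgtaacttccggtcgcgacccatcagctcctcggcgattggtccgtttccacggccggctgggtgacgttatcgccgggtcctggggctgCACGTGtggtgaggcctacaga
DDX21, chr10:68956397-68956696, plus strand: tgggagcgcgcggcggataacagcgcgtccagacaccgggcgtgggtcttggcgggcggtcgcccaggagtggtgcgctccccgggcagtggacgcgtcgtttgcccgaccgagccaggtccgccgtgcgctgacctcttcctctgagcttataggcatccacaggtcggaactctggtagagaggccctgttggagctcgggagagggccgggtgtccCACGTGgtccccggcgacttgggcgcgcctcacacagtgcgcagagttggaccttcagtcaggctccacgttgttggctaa
NOP16, chr5:176388549-176388848, minus strand: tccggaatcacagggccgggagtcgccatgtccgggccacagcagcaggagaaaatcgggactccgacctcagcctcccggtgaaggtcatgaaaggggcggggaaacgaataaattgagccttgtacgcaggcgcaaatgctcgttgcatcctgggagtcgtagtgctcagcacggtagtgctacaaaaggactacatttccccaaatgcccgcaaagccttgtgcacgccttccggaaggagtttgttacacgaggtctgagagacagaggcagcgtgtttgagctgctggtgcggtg
For 5 more members that were higher with overexpression, the site is printed with 10 bases on each side to show how the flanks vary.
BYSL, chr6:41921517-41921542, plus strand: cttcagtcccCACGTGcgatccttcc
GAR1, chr4:109815783-109815808, plus strand: gccagaggggCACGTGgcgccggtga
GNL3, chr3:52686028-52686053, plus strand: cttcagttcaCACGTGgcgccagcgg
PNO1, chr2:68157887-68157912, plus strand: tgcagctgcgCACGTGtttcagccgg
UTP20, chr12:101280085-101280110, plus strand: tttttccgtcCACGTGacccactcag
Counted with the start site as position 1, the site began at position 4 in WDR43, 29 in LTV1, 36 in NOP2 and 29 in BYSL, and at -31 in DDX21. Of the members with a window, 9 of 17 with CACGTG and 8 of 18 without it were higher with overexpression, with median log2 fold changes of 0.61 and 0.51. In the knockdown 6 of 17 with it and 6 of 18 without it were lower, with medians of -0.40 and -0.29. These differences between members with and without the letters were not tested.

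**Figure D1:**
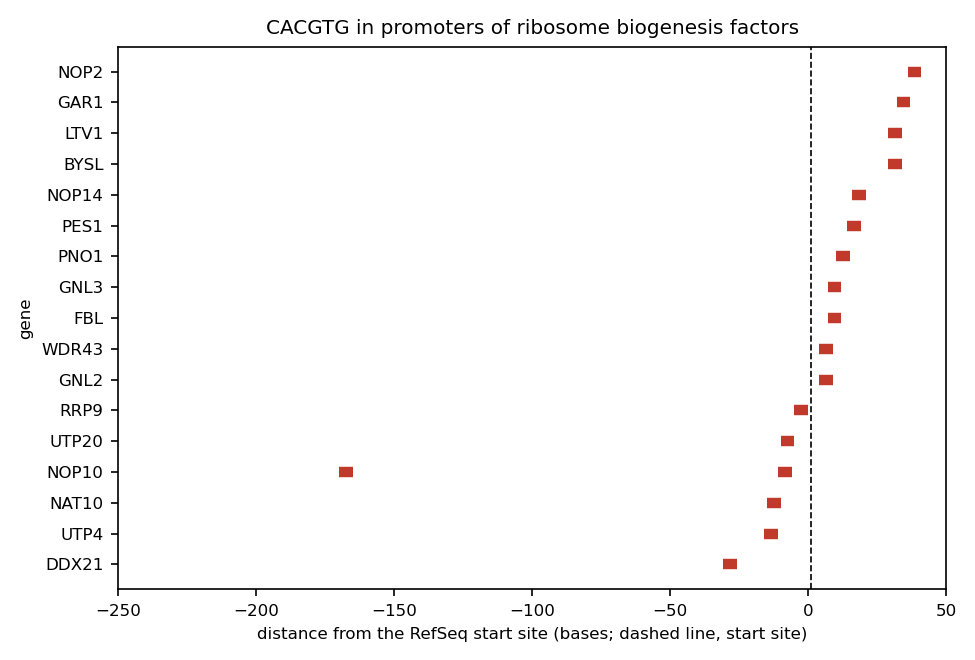
Position of CACGTG (red bars, 6 bases) in the promoter windows of the 17 ribosome biogenesis factors that hold it; the horizontal axis is the distance from the RefSeq start site in bases, from 250 before to 50 after it. All sites but 1, in NOP10, begin within 50 bases of the start site.

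Before the comparisons, the targeted gene and the libraries were checked. NR0B1 stood at 98.9, 81.8 and 84.1 CPM (counts scaled to the library total) in NR0B1 OE and at 17.9, 60.1 and 55.2 CPM in OEC, a log2 fold change of 0.99 ± 0.38 (SE) that was not called (adjusted p = 0.0912, edgeR). It stood at 2.99, 3.31 and 5.84 CPM in shNR0B1 and at 16.3, 21.1 and 13.3 CPM in shNC, a log2 fold change of -2.06 ± 0.42 (adjusted p = 0.00593). The lowest OEC library, replicate 1, stood apart from the other OEC libraries on the second principal component, and shNR0B1 replicate 2 stood apart from the other knockdown libraries on the first. Counts are therefore also given without both. Libraries held 15049011 to 22797076 expected counts. Keratins KRT7, KRT8 and KRT18 were at 960 CPM or more in every library, and the A549-typical ALDH1A1 at 4246 CPM or more. The other epithelial genes read were lower. CDH1 was at 105 to 337 CPM, KRT19 at 7.63 to 205 CPM and EPCAM at 0.445 to 5.03 CPM across the libraries. PTPRC, CD3E, PECAM1 and CDH5, which mark leukocytes and endothelium, were at or near 0. The fibroblast gene COL1A1 was at 43.1, 11.4 and 13 CPM in shNR0B1 and 2.11, 3.08 and 3.1 CPM in shNC, while the fibroblast genes COL1A2 and PDGFRB were at or near 0. CD68 was at 33.9 to 135 CPM across the 12 libraries.

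Across the 12 libraries the members moved largely as a block, shown in the heat map of centred values. Each member's log2 CPM was centred on its mean over the 12 libraries. The median over the 42 members was then 0.17, 0.13 and 0.22 in NR0B1 OE and -0.26, -0.56 and -0.58 in OEC. It was -0.18, -0.34 and 0.35 in shNR0B1 and 0.39, 0.34 and 0.46 in shNC. OEC was thus the lowest group and shNC the highest, and shNR0B1 replicate 3 lay beside shNC rather than beside the other knockdown libraries. The same median over all genes tested was 0.00 to 0.02 in every library. Together the members held 0.598%, 0.595% and 0.628% of Ensembl-row counts in NR0B1 OE, against 0.431%, 0.413% and 0.412% in OEC, and 0.513%, 0.434% and 0.676% in shNR0B1, against 0.694%, 0.677% and 0.725% in shNC. In these bulk libraries, fewer cells with a given RNA and less of that RNA per cell cannot be told apart.

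**Figure D2:**
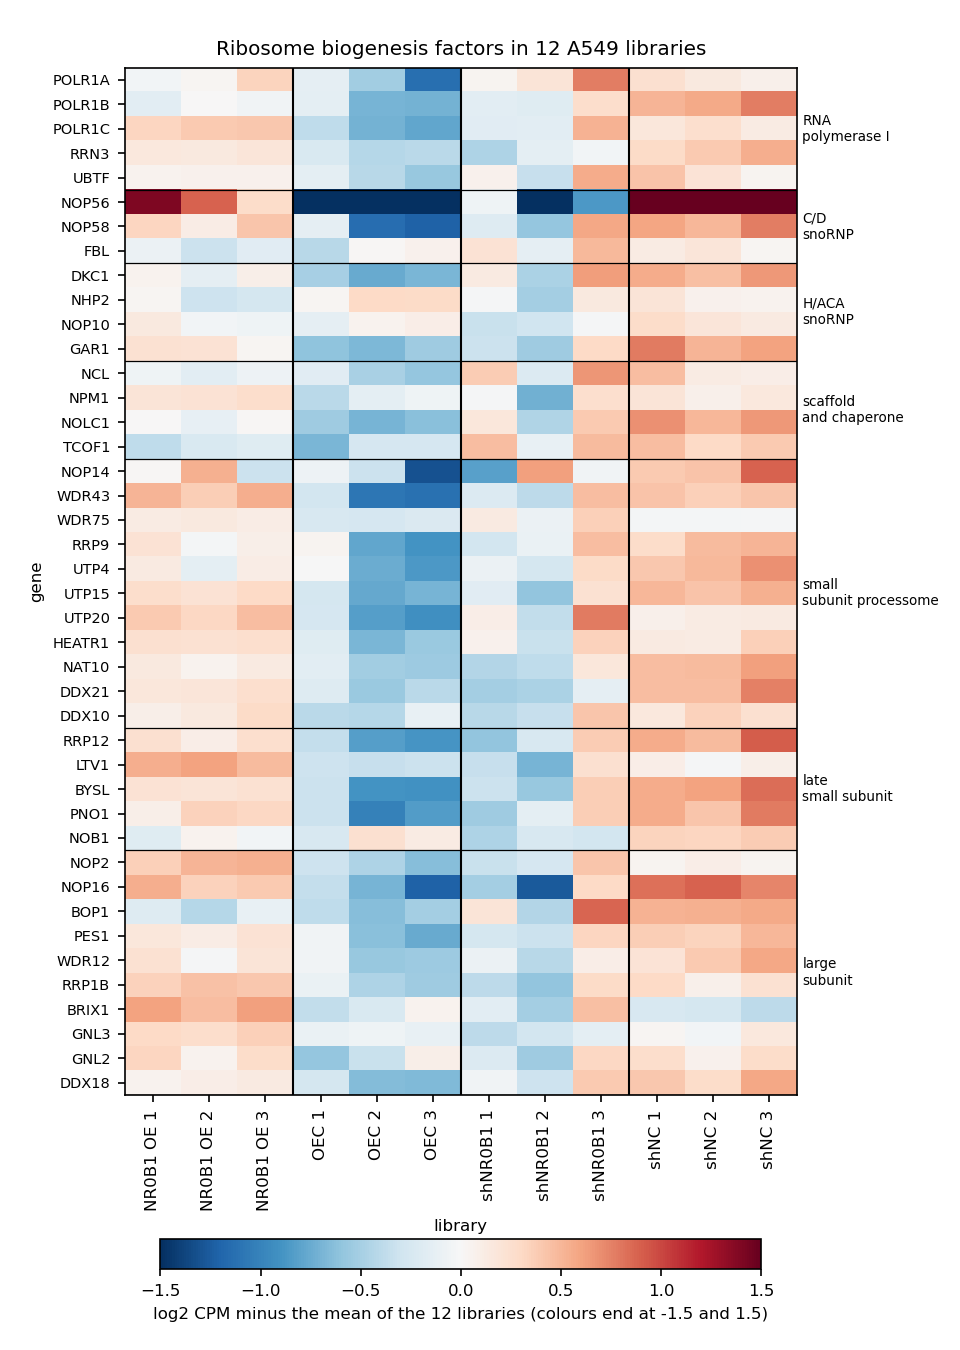
Log2 CPM of each of the 42 genes minus its own mean over the 12 libraries (colour; the scale ends at -1.5 and 1.5), genes in rows by role and libraries in columns by group. The OEC columns are mostly blue and the shNC columns mostly red, and shNR0B1 replicate 3 is redder than replicates 1 and 2; NOP56 runs past the colour scale.

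By group means, OEC was lowest for 36 of the 42 members and shNC highest for 26. The most frequent order was shNC, NR0B1 OE, shNR0B1, OEC, from high to low, in 18 members. NR0B1 OE had a higher mean than shNC in 12 members, and shNR0B1 a higher mean than OEC in 38. Neighbours in this order often lay within the replicate spread. Leaving NOP56 out, the coefficient of variation of the 41 other members had a median of 5.97% in NR0B1 OE, 16.4% in OEC, 28.5% in shNR0B1 and 6.95% in shNC. The wide knockdown spread came with replicate 3, the highest of the knockdown libraries for 39 members. That replicate lay below all 3 shNC libraries for 19 members, against 35 for replicate 1 and 40 for replicate 2. OEC replicate 1 was the highest of its group for 29 members. These orders and positions were counted for the members only and not over all genes tested, so the counts have no background.

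MYC followed the same order of groups. It stood at 314, 293 and 301 CPM in NR0B1 OE, against 89.2, 63.8 and 78.3 CPM in OEC. It stood at 162, 92.8 and 213 CPM in shNR0B1, against 443, 374 and 415 CPM in shNC. Neither pair of groups overlapped, and within shNR0B1 replicate 3 was again the highest and replicate 2 the lowest. The log2 fold changes of MYC were 1.97 ± 0.25 (SE) with overexpression (adjusted p = 0.00118) and -1.40 ± 0.24 in the knockdown (adjusted p = 0.00251). The part of MYC in the members' levels was not tested.

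With NR0B1 overexpression, ribosome biogenesis factors were higher than in OEC. At an adjusted p below 0.05 (edgeR quasi-likelihood test, Benjamini-Hochberg over 11908 genes), 22 of the 42 rose, 0 fell and 20 did not pass. Over all genes tested 9.87% rose, 8.2% fell and 18.1% passed in either direction, so that the members' share of rises, 52.4%, was above the background. Values after ± are standard errors of the fit throughout. Their median log2 fold change was 0.59, against -0.03 for all genes tested, and 39 of 42 values were positive. For the count of 0 falls, 1 member, NHP2, was lower at an unadjusted p below 0.05, and DESeq2 and limma also called 0. In 31 members all 3 NR0B1 OE libraries lay above all 3 OEC libraries and in 1 all lay below, where 43.5% of all genes tested showed no overlap in either direction. The count of 22 moved with single libraries. It was 9, 9 and 5 without NR0B1 OE replicates 1, 2 and 3, and 27, 4 and 5 without OEC replicates 1, 2 and 3, with medians of 0.54 to 0.74 over all 12 single omissions. POLR1C, NOP2, WDR43 and LTV1 passed in every one of these. Without NR0B1 OE replicates 1, 2 and 3, 21.4%, 21.4% and 11.9% of the members were called in either direction. Of all genes tested, 10.3%, 8.08% and 6.89% were. Without OEC replicates 1, 2 and 3, 64.3%, 9.52% and 11.9% of the members were called, against 25.3%, 7.94% and 7.84% of all genes tested. Without both OEC replicate 1 and shNR0B1 replicate 2, 33 rose and 1, NHP2, fell, against 37.5% of all genes tested called.

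In the knockdown the direction was downward, with fewer calls. In shNR0B1, against shNC, 14 of the 42 members fell, 0 rose and 28 did not pass. Over all genes tested 11.5% fell, 12.4% rose and 23.9% passed in either direction. The members' median log2 fold change was -0.39, against 0.03 for all genes tested, and 36 of 42 values were negative. For the count of 0 rises by edgeR, 0 members were higher at an unadjusted p below 0.05 and DESeq2 and limma called 0. In 18 members all 3 shNR0B1 libraries lay below all 3 shNC libraries, and in 0 all lay above. Of all genes tested 40.9% showed no overlap in either direction, a share close to that of the members. Of these 11908 genes, 2459 lay wholly below and 2410 wholly above. The count of falls was 5 without shNR0B1 replicate 1, where 11.9% of the members and 17.9% of all genes tested were called, and 27 without replicate 3, where 64.3% and 25.5% were. Without shNR0B1 replicate 2 it was 10, and 26.2% of the members and 28.8% of all genes tested were called. It was 6, 8 and 6 without shNC replicates 1, 2 and 3, where 14.3%, 19% and 14.3% of the members and 14.3%, 15.9% and 12.6% of all genes tested were called. It was 6 when the 6 libraries of this comparison were fitted alone, 14.3% of the members against 15.4% of all genes tested. In these settings, apart from the omission of shNR0B1 replicate 3, the members' share of calls in either direction was near or below the background in either direction. Rises made up 47.1% to 54.7% of all genes called in these settings, so the background of falls alone is smaller than the shares given. NOP56, DDX21, NOB1, RRN3 and NAT10 passed in every single omission. For NOP56 this holds for its Ensembl rows only. With its rows that lack an Ensembl identifier added, its log2 fold change was -0.16 (adjusted p = 0.732), as described below. Without both libraries that stood apart, 15 fell and 2, WDR75 and BRIX1, rose, against 37.7% of all genes tested called.

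The responses of the arms were also compared directly, as the overexpression difference minus the knockdown difference. For 26 of the 42 members this value was above 0 at an adjusted p below 0.05 and for 0 it was below, with a median of 1.03, against -0.06 for all genes tested. Over all genes tested, 13.1% were above, 12.6% below and 25.6% called in either direction. For the count of 0, edgeR put 0 members below at an unadjusted p below 0.05, and DESeq2 and limma called 0. The count was 22 to 35 over the 12 single omissions, where 17.9% to 31.8% of all genes tested were called in either direction. All 4 groups enter this value, so a low OEC group and a high shNC group raise it. NR0B1 OE had a higher mean than shNR0B1 in 31 of the 42 members. How much the control groups contribute was not tested. In 10 members both arms passed, higher with overexpression and lower in the knockdown. They include NOP56, whose knockdown call rested on its Ensembl rows alone. A further 12 passed only the first test and 4 only the second, which does not show that their responses differ, and 16 passed neither. The share of all genes tested that passed both arms was not computed, so these counts have no background. No member kept the calls of both arms in all 12 single omissions.

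The control groups differed from each other in more members than either arm did. In OEC, against shNC, 29 of the 42 members were lower, 0 higher and 13 not called. Over all genes tested 16.1% were lower, 17.2% higher and 33.4% called in either direction. The median log2 difference was -0.79, against 0.01 for all genes tested, and 40 of 42 values were negative. For the count of 0, edgeR put 0 members higher at an unadjusted p below 0.05, and DESeq2 and limma called 0. In 38 members every OEC library lay below every shNC library, where 54% of all genes tested showed no overlap. This comparison shares OEC with the overexpression comparison and shNC with the knockdown comparison, so a low OEC group and a high shNC group enter it together. NR0B1 itself was higher in OEC than in shNC, although their libraries overlapped, with a log2 difference of 1.40 ± 0.39 (adjusted p = 0.0189). The members thus ran opposite to NR0B1 between the controls, and the cause was not tested. What else separates the control groups besides their label is not given in the sources used here. The count was 22 to 34 over the single omissions, where 21.5% to 41.3% of all genes tested were called in either direction. It was 32 without both libraries that stood apart, where 47.5% of all genes tested were called.

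**Figure D3:**
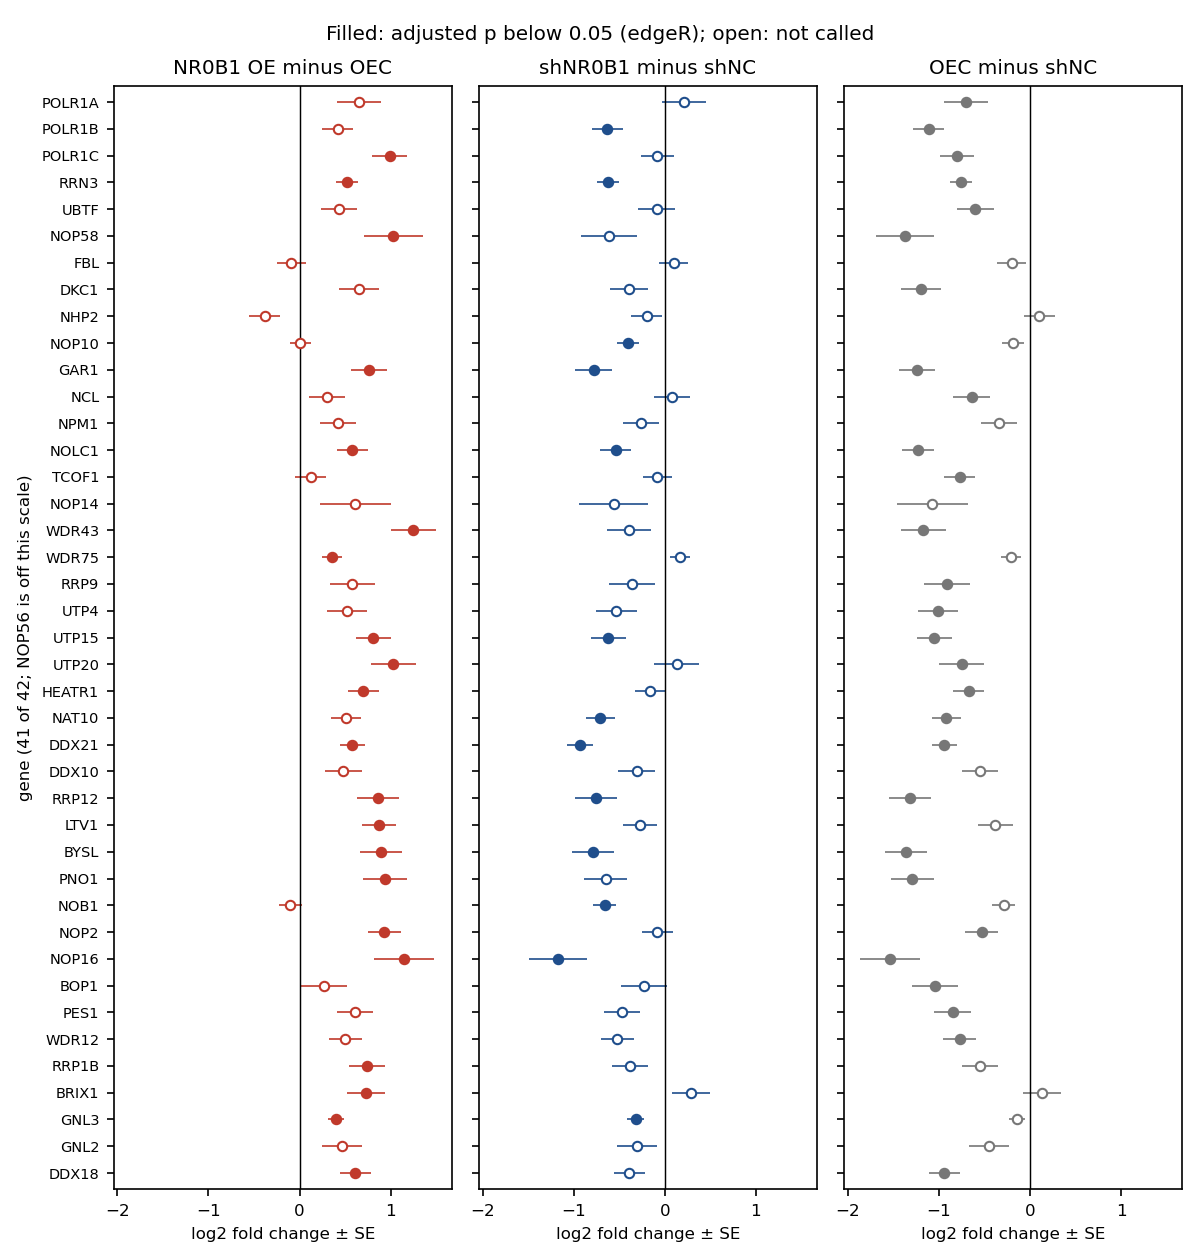
Log2 fold change and its standard error from edgeR for 41 of the 42 genes in the 3 comparisons: NR0B1 OE minus OEC (left), shNR0B1 minus shNC (middle) and OEC minus shNC (right); filled points passed an adjusted p below 0.05. Filled points lie right of 0 on the left and left of 0 in the other panels; NOP56 is left out because its values run past the axis.

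Of the RNA polymerase I genes, 2 of 5 rose with overexpression, 2 of 5 fell in the knockdown and 5 of 5 were lower in OEC than in shNC, although in the last comparison POLR1A and UBTF each lost the call in 8 of the 12 single omissions. Differences between roles were not tested. Their mean levels ran from 14.5 FPKM (POLR1B) to 31.7 FPKM (POLR1C) in NR0B1 OE and from 10.8 FPKM (POLR1B) to 21 FPKM (UBTF) in OEC. POLR1C, a subunit shared by RNA polymerases I and III (ENSG00000171453, chr6:43509702-43562419 in GENCODE 29 on GRCh38), had the smallest adjusted p of any member with overexpression. It stood at 32.8, 34.4 and 34.6 CPM in NR0B1 OE and 20, 16 and 15.2 CPM in OEC, without overlap, a log2 fold change of 0.99 ± 0.19 (adjusted p = 0.00689). In shNR0B1 it stood at 23.3, 23.4 and 37.5 CPM and in shNC at 29.5, 31.1 and 28.5 CPM, with replicate 3 above all 3 shNC libraries, and the difference of -0.08 ± 0.18 (adjusted p = 0.78) was not called. RRN3, the initiation factor that brings RNA polymerase I to the promoter (chr16:15060022-15094317), passed in both arms. It stood at 122, 121 and 124 CPM in NR0B1 OE and 93.4, 81.1 and 82.1 CPM in OEC, a log2 fold change of 0.52 ± 0.12 (adjusted p = 0.0162). In shNR0B1 it stood at 79, 98.5 and 106 CPM, below the 133, 144 and 159 CPM of shNC in every library, a log2 fold change of -0.62 ± 0.12 (adjusted p = 0.00468). POLR1B, the smaller of the large catalytic subunits (chr2:112541915-112577150), fell in the knockdown, with 70.4, 69.2 and 93.9 CPM in shNR0B1 against 112, 116 and 134 CPM in shNC and a log2 fold change of -0.63 ± 0.17 (adjusted p = 0.0201). It was also lower in OEC, at 70.7, 48.4 and 48.1 CPM, than in shNC, with a log2 difference of -1.11 ± 0.17 (adjusted p = 0.00105). With overexpression its libraries overlapped those of OEC, and the log2 fold change of 0.42 ± 0.17 (adjusted p = 0.102) was not called. POLR1A, the largest subunit, had log2 fold changes of 0.65 ± 0.24 (adjusted p = 0.0805) with overexpression and 0.21 ± 0.24 (adjusted p = 0.554) in the knockdown, and UBTF, which binds ribosomal DNA, had 0.43 ± 0.20 (adjusted p = 0.154) and -0.09 ± 0.20 (adjusted p = 0.78); none of these 4 values was called. The 12749-base transcript of POLR1A, ENST00000263857, held 79%, 89.9% and 88.7% of the gene's Ensembl-row FPKM in NR0B1 OE, against 63%, 65.5% and 61.3% in OEC, without overlap. It held 55.7%, 61% and 61% in shNR0B1, against 52.6%, 56.4% and 50.8% in shNC, with 1 shNR0B1 library inside the shNC range. Transcript estimates share reads, so these shares are a description.

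Of the late small subunit factors, 4 of 5 rose with overexpression and 3 of 5 fell in the knockdown. In the difference of the arms all 5 passed, at 0.56 to 1.69. LTV1, an export adaptor bound to the maturing small subunit (chr6:143843344-143863812), stood at 44.9, 46.7 and 42.8 CPM in NR0B1 OE and 24.8, 24.2 and 24.7 CPM in OEC, a log2 fold change of 0.87 ± 0.19 (adjusted p = 0.0125). The OEC libraries of LTV1 differed by less than 1 CPM. In shNR0B1 it stood at 24.3, 19 and 36.4 CPM and in shNC at 33, 30.4 and 32.7 CPM, overlapping, with a log2 fold change of -0.27 ± 0.19 (adjusted p = 0.318) that was not called. BYSL, or bystin, which acts in cleavage of the small subunit precursor (chr6:41921188-41933046), passed in both arms. It stood at 42.7, 42.1 and 42.9 CPM in NR0B1 OE and 29.5, 19.7 and 19.6 CPM in OEC, a log2 fold change of 0.89 ± 0.23 (adjusted p = 0.0243). It stood at 29.4, 24.9 and 47.4 CPM in shNR0B1 and 54.3, 56 and 65.9 CPM in shNC, a log2 fold change of -0.79 ± 0.23 (adjusted p = 0.0281). The groups did not overlap in either arm, but shNR0B1 replicate 3 lay much closer to shNC than to the other knockdown libraries. RRP12, a HEAT-repeat protein of small subunit export (chr10:97356358-97426076), followed the same course. Its values were 150, 135 and 150 CPM in NR0B1 OE against 99, 71.4 and 68.8 CPM in OEC, a log2 fold change of 0.86 ± 0.23 (adjusted p = 0.0273). They were 84.3, 107 and 165 CPM in shNR0B1 against 186, 176 and 238 CPM in shNC, a log2 fold change of -0.75 ± 0.23 (adjusted p = 0.0366). NOB1, the endonuclease that makes the final cut of small subunit rRNA (chr16:69741867-69754940), passed in the knockdown and not with overexpression, with 70.9, 82.5 and 80.6 CPM in shNR0B1 and 123, 122 and 126 CPM in shNC, a log2 fold change of -0.66 ± 0.13 (adjusted p = 0.00421). Its shNR0B1 libraries lay close together and far below shNC, replicate 3 included. With overexpression NOB1 stood at 86, 101 and 94.8 CPM, within the 82.2, 115 and 106 CPM of OEC (log2 fold change -0.10 ± 0.13 (adjusted p = 0.592)). The difference of its arms was 0.56 ± 0.18 (adjusted p = 0.0402), a call that 7 of the 12 single omissions ended. PNO1, the partner of NOB1, rose by 0.94 ± 0.24 (adjusted p = 0.0219) with overexpression, and its knockdown value of -0.65 ± 0.24 (adjusted p = 0.0653) was not called.

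**Figure D4:**
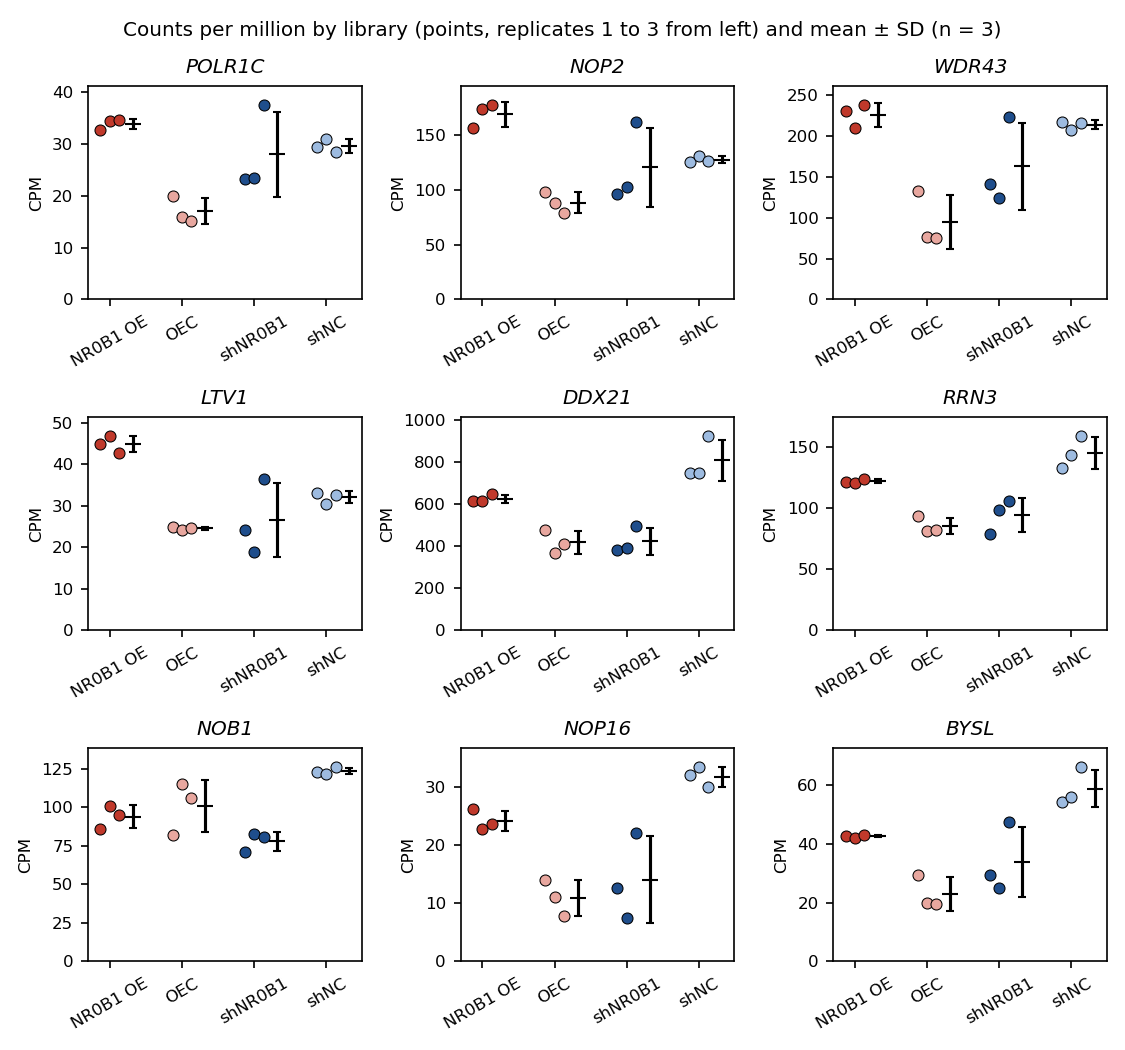
CPM in each of the 12 libraries (points, replicates 1 to 3 from left to right) with the mean and SD of each group (bars, n = 3) for 9 ribosome biogenesis factors; each vertical axis starts at 0. NOP2, WDR43 and LTV1 stand apart between NR0B1 OE and OEC, NOB1 and DDX21 between shNR0B1 and shNC, and in most panels shNR0B1 replicate 3 lies above the other knockdown libraries.

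Of the 11 genes of the small subunit processome, 6 rose with overexpression, 3 fell in the knockdown and 8 were lower in OEC than in shNC. Mean levels ran from 4.69 FPKM (NOP14) to 108 FPKM (DDX21) in NR0B1 OE. WDR43, a WD-repeat protein that links transcription of ribosomal RNA to its processing (chr2:28894643-28948222), had the largest log2 fold change of this role with overexpression. It stood at 230, 209 and 237 CPM in NR0B1 OE and 133, 76.6 and 74.8 CPM in OEC, a log2 fold change of 1.25 ± 0.25 (adjusted p = 0.00835). In shNR0B1 it had 141, 124 and 223 CPM, where shNC had 217, 207 and 216 CPM, and the log2 fold change of -0.39 ± 0.24 (adjusted p = 0.258) was not called. DDX21, a nucleolar DEAD-box RNA helicase (chr10:68956128-68985073), passed in all 3 comparisons. It stood at 616, 617 and 649 CPM in NR0B1 OE and 479, 370 and 413 CPM in OEC, a log2 fold change of 0.58 ± 0.14 (adjusted p = 0.0186). It stood at 383, 393 and 498 CPM in shNR0B1 and 752, 752 and 924 CPM in shNC, a log2 fold change of -0.93 ± 0.14 (adjusted p = 0.00126), and all 12 values separate the groups within each arm. The control groups differed by -0.94 ± 0.14 (adjusted p = 0.000925). UTP15, a subunit of the transcription-coupled t-UTP complex (chr5:73565443-73583377), stood at 75.2, 72.6 and 76.7 CPM in NR0B1 OE and 52.2, 36.8 and 38.6 CPM in OEC, a log2 fold change of 0.81 ± 0.19 (adjusted p = 0.016). It stood at 55.8, 41.6 and 73.6 CPM in shNR0B1 and 88.3, 84.5 and 90.9 CPM in shNC, a log2 fold change of -0.62 ± 0.19 (adjusted p = 0.0342). NAT10, which acetylates cytidines of small subunit rRNA, fell in the knockdown, with a log2 fold change of -0.71 ± 0.16 (adjusted p = 0.0104), and its overexpression value of 0.51 ± 0.16 (adjusted p = 0.051) just missed the threshold. UTP20, a large HEAT-repeat scaffold, and HEATR1, another large HEAT-repeat protein of the t-UTP complex, rose by 1.03 ± 0.25 (adjusted p = 0.02) and 0.70 ± 0.17 (adjusted p = 0.0207) with overexpression. WDR75, also of that complex, rose least among the called members of this role, by 0.36 ± 0.11 (adjusted p = 0.0417), with 71.8, 73.4 and 71.5 CPM in NR0B1 OE against 56, 55.4 and 56.9 CPM in OEC. NOP14, RRP9 (a protein of the U3 snoRNP), UTP4 and the helicase DDX10 were called in neither arm, with log2 fold changes of 0.48 to 0.61 with overexpression and -0.56 to -0.31 in the knockdown.

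Large subunit factors rose with overexpression in 6 of 10 cases and fell in the knockdown in 2, while all 10 overexpression values were positive, at 0.27 to 1.15. NOP2, a cytosine methyltransferase of large subunit rRNA (chr12:6556863-6568691), stood at 156, 174 and 177 CPM in NR0B1 OE and 98.3, 88.2 and 78.7 CPM in OEC, a log2 fold change of 0.93 ± 0.18 (adjusted p = 0.00691). Its knockdown libraries, at 96.4, 103 and 162 CPM, lay on both sides of the 125, 131 and 126 CPM of shNC, with a log2 fold change of -0.08 ± 0.17 (adjusted p = 0.769). NOP16, a small nucleolar protein of early large subunit particles (chr5:176383938-176388975), had the largest log2 fold changes of any member apart from NOP56 among those that passed in both arms. It stood at 26.1, 22.8 and 23.6 CPM in NR0B1 OE and 14, 11 and 7.74 CPM in OEC, a log2 fold change of 1.15 ± 0.33 (adjusted p = 0.0336). It stood at 12.6, 7.49 and 22.1 CPM in shNR0B1 and 32, 33.3 and 29.9 CPM in shNC, a log2 fold change of -1.17 ± 0.32 (adjusted p = 0.0234). The knockdown libraries of NOP16 spread widely, with replicate 3 at nearly 3 times replicate 2, yet all lay below shNC. GNL3, or nucleostemin, a GTPase of the nucleolus (chr3:52681156-52694492), moved least of the members that passed in both arms, with 130, 127 and 136 CPM in NR0B1 OE against 99.5, 102 and 98.5 CPM in OEC and a log2 fold change of 0.40 ± 0.09 (adjusted p = 0.0169). In shNR0B1 it had 80.9, 88 and 96.3 CPM, where shNC had 109, 103 and 119 CPM, with a log2 fold change of -0.32 ± 0.09 (adjusted p = 0.0306). BOP1, PES1 and WDR12 form the PeBoW complex, which is needed for large subunit rRNA processing. None of these 3 was called in either arm, with log2 fold changes of 0.27 to 0.61 with overexpression and -0.52 to -0.23 in the knockdown, while all 3 were lower in OEC than in shNC, with log2 differences of -1.04 to -0.77. BRIX1, an early large subunit factor, followed the common pattern with overexpression only. It rose there by 0.73 ± 0.21 (adjusted p = 0.0325), with 72.5, 65.8 and 73.1 CPM in NR0B1 OE and 37.1, 40.7 and 49.5 CPM in OEC. Its knockdown value was positive, at 0.29 (adjusted p = 0.326), and was not called. In the controls it did not separate, since shNC stood at only 40.3, 39.7 and 36.3 CPM. RRP1B and the helicase DDX18 rose by 0.74 ± 0.20 (adjusted p = 0.0281) and 0.61 ± 0.17 (adjusted p = 0.0328) with overexpression, and GNL2, another GTPase, was called in none of the 3 comparisons.

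Among the box H/ACA proteins, which carry the pseudouridine synthase DKC1, 1 of 4 rose with overexpression and 2 of 4 fell in the knockdown. GAR1 (chr4:109815510-109824740) passed in both arms, with 17.1, 17 and 15 CPM in NR0B1 OE against 9.6, 9.17 and 10.2 CPM in OEC and a log2 fold change of 0.76 ± 0.20 (adjusted p = 0.0256). It had 11.7, 10.1 and 18 CPM in shNR0B1 against 25.2, 20.9 and 22.3 CPM in shNC, a log2 fold change of -0.78 ± 0.20 (adjusted p = 0.0159). NOP10 fell in the knockdown, with a log2 fold change of -0.40 ± 0.12 (adjusted p = 0.0363), and had 0.01 ± 0.12 (adjusted p = 0.966) with overexpression. Its knockdown call was ended by 8 of the 12 single omissions. NHP2 ran the other way with overexpression, with 54.3, 42.7 and 44 CPM in NR0B1 OE and 54.3, 65 and 64.5 CPM in OEC, but its log2 fold change of -0.38 ± 0.17 (adjusted p = 0.128) was not called. DKC1 was lower in OEC than in shNC, with a log2 difference of -1.20 ± 0.22 (adjusted p = 0.00242), and was called in neither arm, at 0.65 ± 0.22 (adjusted p = 0.0572) and -0.39 ± 0.21 (adjusted p = 0.204).

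Of the scaffolds and chaperones, 1 of 4 was higher with overexpression and 1 of 4 lower in the knockdown, both times NOLC1. NOLC1, a snoRNP chaperone (chr10:102152176-102163871), stood at 204, 187 and 207 CPM in NR0B1 OE and 141, 126 and 133 CPM in OEC, a log2 fold change of 0.58 ± 0.17 (adjusted p = 0.0398). It stood at 229, 149 and 268 CPM in shNR0B1 and 329, 288 and 321 CPM in shNC, a log2 fold change of -0.54 ± 0.17 (adjusted p = 0.0434), and the control groups differed by -1.23 ± 0.18 (adjusted p = 0.000751). Nucleophosmin, NPM1, was by far the most abundant member, at a mean of 807 FPKM in NR0B1 OE, 599 FPKM in OEC, 657 FPKM in shNR0B1 and 799 FPKM in shNC. Its log2 fold changes of 0.42 ± 0.20 (adjusted p = 0.155) and -0.26 ± 0.20 (adjusted p = 0.369) were not called, and 45 annotated pseudogenes carry its name, so its counts may hold reads of near-identical copies. Nucleolin, NCL, had 0.30 ± 0.20 (adjusted p = 0.302) with overexpression and 0.08 ± 0.20 (adjusted p = 0.791) in the knockdown, and treacle, TCOF1, which links RNA polymerase I to processing, had 0.12 ± 0.17 (adjusted p = 0.632) and -0.08 ± 0.16 (adjusted p = 0.744).

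Of the box C/D proteins, NOP58 rose with overexpression, with 73, 63.4 and 78.2 CPM in NR0B1 OE against 53.2, 26.5 and 25.2 CPM in OEC and a log2 fold change of 1.03 ± 0.32 (adjusted p = 0.045). In the knockdown its value of -0.61 ± 0.31 (adjusted p = 0.181) was not called, with 51.2, 39.1 and 87.6 CPM in shNR0B1 overlapping the 88.5, 82.6 and 99.7 CPM of shNC. Fibrillarin, FBL, the ribose methyltransferase, was among the few members with no sign of the pattern, at -0.09 ± 0.16 (adjusted p = 0.72) and 0.10 ± 0.16 (adjusted p = 0.697), and its libraries overlapped in both arms and between the controls.

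NOP56, the partner of NOP58 in the box C/D core (ENSG00000101361, chr20:2652145-2658393), had the smallest share of its counts in Ensembl rows of any member. Summed over Ensembl rows it stood at 2.77, 1.92 and 1.25 CPM in NR0B1 OE and 0, 0.109 and 0.195 CPM in OEC. It stood at 0.979, 0 and 0.554 CPM in shNR0B1 and 13.5, 25.1 and 48 CPM in shNC. The fit gave log2 fold changes of 4.20 ± 1.02 (SE; adjusted p = 0.0194) with overexpression and -5.76 ± 0.83 (adjusted p = 0.00106) in the knockdown. OEC held at most 3 expected counts in a library, so the size of the overexpression value depends on the fit's prior count. Per transcript, the 2400-base protein-coding ENST00000329276 had 212.70, 408.02 and 899.47 expected counts in shNC and 0 in each of the 9 other libraries. ENST00000415272, of 1628 bases, was at 0 in all 12. The 856-base ENST00000445139 had 38.59, 27.72 and 16.46 expected counts in NR0B1 OE and 0, 1.56 and 2.96 in OEC, and 18.71, 0 and 8.83 in shNR0B1 and 17.45, 16.21 and 14.77 in shNC. Only 4.96% of the counts that carry the symbol NOP56 were in Ensembl rows, and the other 32254 were in 3 assembled rows (identifiers starting with TCONS).

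With the assembled rows added, NOP56 stood at 197, 157 and 181 CPM in NR0B1 OE and 122, 66.1 and 55.2 CPM in OEC, without overlap. It stood at 147, 101 and 240 CPM in shNR0B1 and 183, 186 and 176 CPM in shNC, with knockdown libraries on both sides of the control. The log2 fold change was then 1.14 with overexpression (adjusted p = 0.0273), -0.16 in the knockdown (adjusted p = 0.732) and -1.17 between OEC and shNC (adjusted p = 0.0146). The knockdown call of NOP56 therefore rested on which rows received the reads, and the overexpression call held with both ways of summing, at very different sizes.

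**Figure D5:**
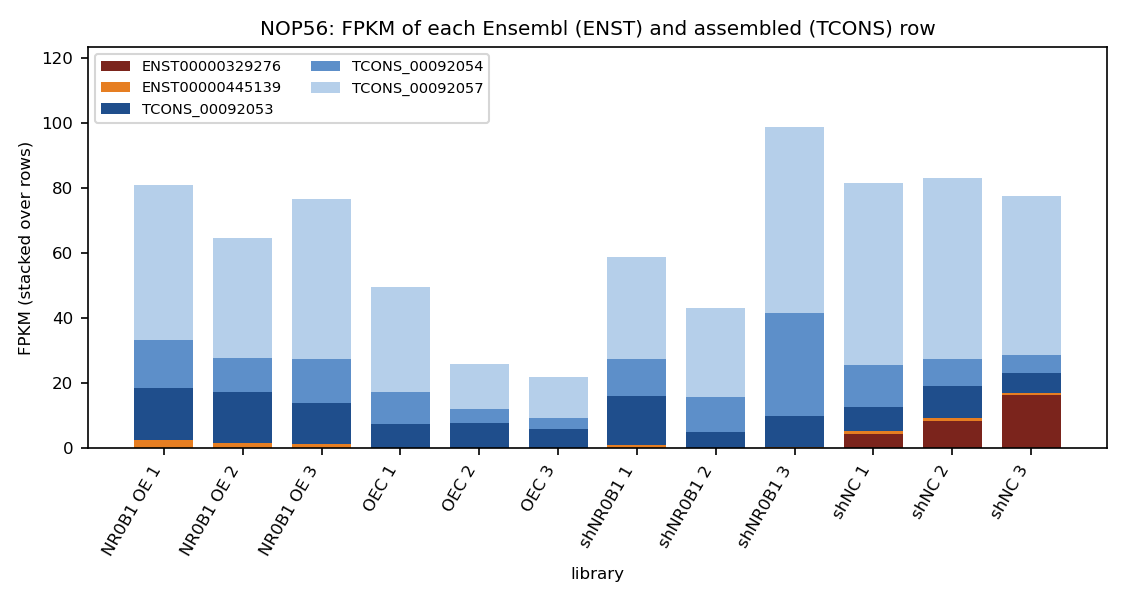
FPKM of each NOP56 row, stacked, in the 12 libraries: the 2 Ensembl transcripts above 0 and the 3 assembled (TCONS) rows. The 2400-base Ensembl transcript, ENST00000329276, appears only in the 3 shNC libraries, and the assembled rows make up nearly all of the bar in the other 9.

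Assembled rows also held 1000 or more counts of 7 other members. With these rows added DDX10 was called in both arms, at log2 fold changes of 0.90 (adjusted p = 0.00154) and -0.90 (adjusted p = 0.000706), against the 0.48 ± 0.20 (adjusted p = 0.111) and -0.31 ± 0.20 (adjusted p = 0.272) of its Ensembl rows. DDX10 then stood at 112, 107 and 128 CPM in NR0B1 OE and 73.4, 57.3 and 54.4 CPM in OEC. It stood at 62.7, 68 and 72.4 CPM in shNR0B1 and 124, 114 and 140 CPM in shNC. NOP14 (0.69, adjusted p = 0.0184) and POLR1A (0.74, adjusted p = 0.0333) were then called with overexpression, and HEATR1 no longer was (0.51, adjusted p = 0.0514). In all, 27 members rose with overexpression, 16 fell in the knockdown and 32 were lower in OEC than in shNC with assembled rows added. Calls also rose over all genes. In the same order 22.3%, 28.9% and 38.5% of 12543 genes were then called in either direction, against 18.1%, 23.9% and 33.4% with Ensembl rows alone.

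A further list of 123 ribosome biogenesis genes, of which 122 were tested was read in the same fit. With overexpression 49 of 122 rose and 0 fell, with a median log2 fold change of 0.46, where 9.87% of all genes tested rose and 8.2% fell. For the count of 0 by edgeR, 4 were lower at an unadjusted p below 0.05, DESeq2 called 2 and limma 0. In the knockdown 35 fell and 2 rose, with a median of -0.28, where 11.5% of all genes tested fell and 12.4% rose. In 18 of the 122 both arms passed, higher with overexpression and lower in the knockdown. The share of all genes tested that did so was not computed. Between the controls 71 were lower in OEC and 1 higher, with a median of -0.58, where 16.1% of all genes tested were lower and 17.2% higher. The difference of the arms was above 0 in 62 and below in 3, where 13.1% of all genes tested were above and 12.6% below. By role, 20 of 41 small subunit genes, 18 of 47 large subunit genes, 4 of 10 RNA polymerase I genes, 4 of 9 snoRNP assembly genes and 3 of 15 exosome and nuclease genes rose with overexpression. In the same order 11, 16, 2, 3 and 3 fell in the knockdown. These counts moved with single libraries too. The rises were 28 and 25 without NR0B1 OE replicates 2 and 3, 24 and 27 without OEC replicates 2 and 3, and 71 without shNR0B1 replicate 2. In the same order 8.08%, 6.89%, 7.94%, 7.84% and 27.7% of all genes tested were called in either direction with overexpression. The falls were 17, 23 and 55 without shNR0B1 replicates 1, 2 and 3, and 19 and 16 without shNC replicates 1 and 3. In either direction, 17.9%, 28.8% and 25.5% of all genes tested were called without shNR0B1 replicates 1, 2 and 3, and 14.3% and 12.6% without shNC replicates 1 and 3.

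DDX52, a DEAD-box helicase of small subunit processing, stood at 64.4, 71.5 and 75.3 CPM in NR0B1 OE and 35.4, 31.6 and 35.7 CPM in OEC, a log2 fold change of 1.04 ± 0.12 (SE; adjusted p = 0.000732). UTP3 rose by 0.99 ± 0.13 (adjusted p = 0.00145), KRR1 by 0.63 ± 0.10 (adjusted p = 0.00268) and TSR1, a GTPase-like late factor, by 0.85 ± 0.13 (adjusted p = 0.00312). In the knockdown the smallest adjusted p belonged to large subunit genes. RPF1 stood at 18.6, 15.7 and 15 CPM in shNR0B1 and 45.5, 33.7 and 41 CPM in shNC, a log2 fold change of -1.28 ± 0.14 (adjusted p = 0.000284). RSL1D1 had -1.0 ± 0.12 (adjusted p = 0.000382), RSL24D1 -0.69 ± 0.09 (adjusted p = 0.00052) and NOC3L -1.26 ± 0.17 (adjusted p = 0.000891). In RPF1, RSL1D1 and RSL24D1 shNR0B1 replicate 3 lay with the other knockdown libraries. The 2 that rose in the knockdown were NOP9, an RNA-binding small subunit factor, at 105, 83.9 and 107 CPM in shNR0B1 and 43.4, 49.9 and 44.2 CPM in shNC (1.11 ± 0.17, adjusted p = 0.00135), and TEX10 (0.48 ± 0.12, adjusted p = 0.0137).

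The gene spans of some members overlap those of other genes. POLR1C lies over XPO5, RRN3 over PDXDC1, GNL3 over PBRM1 and NOP16 over ARL10, each on the opposite strand. Without strand, reads from any exon stretch that such a pair shares cannot be told apart. NOP2 overlaps AC006064.6 over 11806 bases, LTV1 overlaps AL049844.3 over 6495 and UTP4 overlaps SNTB2 over 44002, each on the same strand. These lengths are of whole gene spans, introns included. Strand would not separate reads from any shared exons. The overlap of exons was not measured, so how far the values of these members are affected is not known. Annotated pseudogenes carry the names of NPM1, NOP56, RRN3, NCL, NHP2, LTV1 and DDX18 among others, and how the authors' counting split reads among copies is not given in the sources used here.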

How the data were processed

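RNA was sequenced from 12 A549 libraries, 3 in each of 4 groups. The deposited table gives, per the file headers, an expected count (an RSEM-style estimate with fractions) and an FPKM for each transcript row and library. The tools named per the submitters' processing notes are RSEM, StringTie 1.3.1, HISAT2 2.0.5, Bowtie2 2.2.8 and fastp, and the builds named there are the mouse builds GRCm38 and mm10, although the identifiers are human. Of 82270 Ensembl rows, 82237 are in GENCODE release 29, and 99.78% of those have the same symbol there. The annotation release and strand setting are not stated in those notes. Another 13977 assembled rows held 13.3% to 15.4% of each library's counts and were left out of the main sums. Spreadsheet dates in place of a symbol in 184 Ensembl rows were replaced through their transcript identifiers.

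Expected counts were summed per symbol over Ensembl rows and rounded to whole numbers, and FPKM were summed likewise. The 11908 genes that reached an FPKM of 1 in at least 3 libraries were tested with edgeR 4.0.16 in R 4.3.3 (quasi-likelihood, robust, TMM scaling, 1 fit of all 12 libraries with 8 residual degrees of freedom), and p-values were adjusted by Benjamini-Hochberg over all of them. The adjusted p-values in the text come from that fit, called below 0.05. Between-library variation was 24.5% (common biological coefficient of variation). CPM values use TMM-scaled library sizes. No pair of libraries agreed within counting noise, so each counted as 1 sample.

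The members and gene lists were chosen with earlier results of these data known. Values in every library are given for NOP56, for up to 4 called members per direction and comparison by smallest adjusted p, and for up to 6 members called in both arms by the smaller absolute log2 fold change; other members with values in every library were chosen after their values were seen. From the further list, up to 4 called genes per direction and arm were taken by smallest adjusted p. Alternatives were DESeq2 1.42.0, upper-quartile scaling, limma 3.58.1 on log2(FPKM + 1) and log2(FPKM + 0.1), no filter, a replicate block, the 6 libraries of an arm alone, assembled rows added, and libraries left out. Promoters were searched in Python 3.11.15 and intervals came from SciPy 1.17.1.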

Additional observations from a re-analysis of the deposited data

Results flagged for a closer look

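For 26 ribosome biogenesis factors the response to NR0B1 overexpression and the response to knockdown differed by a test of the difference itself (edgeR, adjusted p below 0.05). Each value is the log2 fold change of NR0B1 OE over OEC minus that of shNR0B1 over shNC, and all are positive. A low OEC group and a high shNC group raise each value. Among these genes, DKC1, POLR1B and NOLC1 had a higher mean in shNR0B1 than in NR0B1 OE. Their log2 differences of OEC minus shNC were -1.20, -1.11 and -1.23. Of the snoRNP proteins, NOP56 had 9.96, NOP58 1.64, GAR1 1.55 and DKC1 1.04. Of RNA polymerase I genes, RRN3 had 1.14, POLR1C 1.07 and POLR1B 1.06. NOLC1 had 1.12. Of the small subunit processome, WDR43 had 1.64, DDX21 1.51, UTP15 1.44, NAT10 1.22, UTP4 1.05 and HEATR1 0.86. Of the late small subunit factors, BYSL had 1.69, RRP12 1.61, PNO1 1.60, LTV1 1.14 and NOB1 0.56. Of the large subunit factors, NOP16 had 2.32, RRP1B 1.13, PES1 1.08, NOP2 1.02, WDR12 1.02, DDX18 1.0 and GNL3 0.71. The value of NOP56 depends on a control group near 0 and was 1.3 (adjusted p = 0.0464) with assembled rows added.

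Assembled rows that carry a member's symbol, and that the comparisons leave out, held 1000 or more expected counts over the 12 libraries for 8 members. NOP56 had 32254, NCL 27663, HEATR1 17134, DDX10 13426, POLR1A 9786, NOP14 6317, RRN3 3784 and PNO1 3465. The Ensembl rows held 4.96% of the counts of NOP56, 35.6% of DDX10, 35.9% of NOP14, 59.1% of PNO1, 67.7% of HEATR1, 68% of NCL, 82.2% of POLR1A and 85.2% of RRN3.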

How the results depend on the processing

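Members called higher with overexpression, lower in the knockdown, higher in the difference of the arms and lower in OEC than in shNC numbered 22, 14, 26 and 29. In that order they numbered 27, 16, 29 and 32 with DESeq2, 21, 12, 25 and 29 with upper-quartile scaling, 23, 16, 30 and 33 with limma on log2(FPKM + 1), 19, 13, 26 and 28 with no filter and 27, 16, 29 and 32 with assembled rows added. Of all genes tested, 18.1%, 23.9%, 25.6% and 33.4% were called in either direction in the main fit. The shares were 25.9%, 30%, 31.9% and 39.2% with DESeq2 and 19.2%, 24.3%, 26.4% and 33.7% with upper-quartile scaling. They were 18.2%, 24%, 25.4% and 34.7% with limma, 10.2%, 15%, 15.9% and 21.5% with no filter and 22.3%, 28.9%, 30.7% and 38.5% with assembled rows. The replicate numbers did not pair the libraries: same-numbered deviations correlated by 0.01 to 0.17 between NR0B1 OE and OEC and by -0.10 to -0.03 between shNR0B1 and shNC. The replicate block gave 21, 14, 28 and 27, where 15.7%, 20.5%, 23.3% and 30.9% of all genes tested were called in either direction.

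Leaving out 1 library at a time gave 4 to 28 rises and 0 to 1 falls with overexpression, 5 to 27 falls and 0 to 1 rises in the knockdown, 22 to 35 above and 0 below for the difference of the arms, and 22 to 34 lower between controls. Medians ran from 0.54 to 0.74, -0.63 to -0.26, 0.92 to 1.22 and -0.97 to -0.73. In the same order 6.89% to 27.7%, 12.6% to 28.8%, 17.9% to 31.8% and 21.5% to 41.3% of all genes tested were called in either direction. For the further list the ranges were 24 to 71 rises and 0 to 2 falls with overexpression, 16 to 55 falls and 1 to 5 rises in the knockdown, 51 to 79 above and 0 to 3 below for the difference, and 55 to 80 lower and 0 to 1 higher between controls. Without both OEC replicate 1 and shNR0B1 replicate 2, 1 member (NHP2) fell with overexpression, 2 rose in the knockdown and 1 (FBL) was below 0 in the difference. The further list then had 76 rises and 3 falls with overexpression, 8 rises in the knockdown and 2 higher between controls. With the 6 libraries of an arm alone, 6 members (14.3%) and 20 further genes fell in the knockdown, where 15.4% of all genes tested were called in either direction.

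Small further counts also moved. Falls with overexpression were 2 with DESeq2 and 1 with upper-quartile scaling, assembled rows or 6 libraries. Knockdown rises were 1 with assembled rows or 6 libraries. Values below 0 in the difference were 1 with either limma setting and 0 with no filter. Higher values between controls were 0 with assembled rows, limma, no filter or 6 libraries. Assembled rows held 95% of NOP56 counts, against 4.96% in Ensembl rows.

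Log2 fold changes of 12 members that were not called changed sign, and the cause was not tested. In the knockdown the values without shNR0B1 replicate 3, the lowest over all omissions, and the highest over the omissions were -0.02 and 0.48 for BRIX1, -0.06 and 0.25 for FBL, -0.04 and 0.35 for POLR1A, -0.23 and 0.36 for UTP20, -0.12 and 0.29 for NCL, -0.63 and 0.03 for BOP1, -0.36 and 0.06 for NOP2, -0.34 and 0.04 for POLR1C, -0.18 and 0.08 for TCOF1 and -0.35 and 0.10 for UBTF. NOP2 had 0.02 and POLR1C 0.03 without shNR0B1 replicate 2, and UBTF 0.01 without shNC replicate 1. NCL had -0.02 with assembled rows and -0.07 with limma. With overexpression NOP10 ran from -0.06 to 0.06 over the omissions, with -0.03 under upper-quartile scaling, and TCOF1 from -0.01 to 0.19. The difference of the arms of TCOF1 ran from -0.09 to 0.30, and NHP2 between controls had -0.02 with limma. NOP56 is limited by low counts in its Ensembl rows, 3 or fewer in each OEC library, while its assembled rows held many more.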
